A study of Mus musculus with 10 samples.

Results

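The 10 genes described here are markers of neutrophils and the signals that raise granulocytes: S100a8, S100a9, Csf3r, Retnlg, G0s2, Mpo, Ngp, Csf2, Csf3 and Il1b. They were chosen by name, and each matched 1 Ensembl gene ID among the 47069 listed for every tumour. Of the 10, 8 passed the low-count filter and were tested among 17644 genes. Csf2 and Csf3 did not pass and are given by their counts.

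RNA was sequenced from 10 prostate orthografts, tumours grown from cells placed in the organ of origin. About 5000000 cells of 1 of 3 mouse prostate cancer lines went into an anterior prostate lobe of each male CD-1 Nude host, a strain without a normal thymus that still makes neutrophils and macrophages. P1 (n = 3) is a line from a prostate tumour of a 14-month-old donor, and CP1 (n = 3) and CP2 (n = 4) are lines from donors aged 6 and 8 months in which 1 Ctnnb1 allele lacks exon 3, which stabilises beta-catenin. This deletion is not the full difference in genotype between P1 and the other lines. Each condition is thus a single line, and line, genotype and donor age cannot be told apart. The labels do not tie libraries to separate animals, so p-values measure the spread between these samples, which may in part be technical. The title of CP2 replicate 1 names CP1, but it was kept in CP2 on the word of its other labels.

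Granulocyte colony-stimulating factor, encoded by Csf3, acts through the receptor encoded by Csf3r on the committed precursors of the marrow and drives their growth, maturation and release as neutrophils. Csf2 encodes granulocyte-macrophage colony-stimulating factor, and interleukin-1 beta from Il1b is an inflammatory cytokine that induces both factors in stromal and epithelial cells. Maturing neutrophils first make azurophil granule proteins such as Mpo, then specific granule proteins such as Ngp, and mature cells carry large amounts of S100a8 and S100a9 protein. In tumours these cells are studied as a source of proteases and of signals that restrain lymphocytes.

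In the data, CP2 tumours had the lowest mean level of all 10 genes, while tumours of CP2 overlapped those of at least 1 other line for every gene but Retnlg. S100a8, S100a9, Csf3r, Mpo and Ngp had their highest value in 1 tumour, CP1 replicate 2. Retnlg stood highest in P1 replicate 3, and 28 of the 34 P1 reads of Csf3 came from P1 replicate 2. The markers therefore did not share 1 order of tumours, even within a line. Csf3r was not called in CP2 versus P1 (edgeR log2 fold change -0.09 ± 0.33, SE). In bulk tumour RNA, fewer neutrophils, less RNA per neutrophil and a change in other cells that make these transcripts cannot be told apart.

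The stretches around the annotated starts of 3 of these genes are shown because S100a8 and S100a9 lie near each other on chromosome 3 and were highest in the same tumours, while Retnlg did not follow them. Each runs from 100 bases before to 30 bases after the RefSeq start (GRCm38.p6) in the direction of the gene, and capitals mark the letters TATAAA. S100a8 is chr3:90668971-90669100 on the plus strand, S100a9 is chr3:90695692-90695821 on the minus strand and Retnlg is chr16:48872508-48872637 on the plus strand.
S100a8: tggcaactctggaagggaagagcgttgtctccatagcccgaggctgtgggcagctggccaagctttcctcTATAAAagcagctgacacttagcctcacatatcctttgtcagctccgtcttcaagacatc
S100a9: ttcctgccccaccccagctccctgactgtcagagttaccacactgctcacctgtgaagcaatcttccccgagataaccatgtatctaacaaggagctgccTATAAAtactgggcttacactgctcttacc
Retnlg: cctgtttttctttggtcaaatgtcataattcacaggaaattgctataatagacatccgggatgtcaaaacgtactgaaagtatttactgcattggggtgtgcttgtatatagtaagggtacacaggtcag
RefSeq start windows of 300 bases (250 before and 50 after the start) were found for 9 of the 10 genes and searched on both strands. TATAAA stood in 3 of the 9, S100a8, S100a9 and Il1b, and in 13.6% of all 32851 windows. Its first base was 30 bases before the start in S100a8, 31 before it in Il1b and at the start itself in S100a9. The C/EBP-type letters TTNNGNAA, after the factor family of granulocyte genes, stood in 6 of the 9 and in 40.7% of all windows. GAGGAAGT, a PU.1-type motif, stood in S100a8 and Mpo and in 3.2% of all windows. These are matches of letters and show no binding.

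Libraries held 28050484 to 37180721 counts in P1, 25081535 to 30546426 in CP1 and 18800912 to 20638085 in CP2. Levels are counts per 1000000 library counts (CPM) on library sizes scaled by TMM, which adjusts for differences in composition. A total of 3 counts in a library corresponds to 0.0924 to 0.11 CPM in P1, 0.0974 to 0.122 in CP1 and 0.137 to 0.154 in CP2. The whole-gene Ctnnb1 level was 1798 to 1953 CPM in P1 and 917 to 1172 in the CP tumours. It does not resolve the lost exon. Transcripts of seminal vesicle secretory genes summed to 18739 to 174281 CPM in P1 and to 1615 or less in both CP lines.

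All 10 genes were at 32.0 CPM or less in every tumour. Per kilobase of exon (RPKM, the CPM divided by exon length in kilobases), the P1 means ran from S100a9 at 20.0 through Retnlg at 14.4, S100a8 at 8.96, G0s2 at 5.82, Il1b at 5.78, Csf3r at 2.83 and Ngp at 1.63 to Csf2, Mpo and Csf3 at 0.251 to 0.290. From S100a9 to Il1b, and among the last 3, neighbours in this order differed by less than the larger of their SDs. In CP1 the order was S100a9 at 31.0, S100a8 at 19.5, Retnlg at 7.82, Ngp at 4.34, G0s2 at 3.69, Csf3r at 3.48 and Il1b at 2.65, each within the larger SD of its neighbour, and Mpo, Csf2 and Csf3 followed at 0.0836 to 0.388. CP2 had S100a9 at 8.04, S100a8 at 4.49, Csf3r at 2.65, G0s2 at 2.15, Il1b at 1.85, Retnlg at 0.719 and Ngp at 0.494 before Csf2, Mpo and Csf3. There S100a9 stood apart from S100a8, S100a8 from Csf3r and Il1b from Retnlg by more than the larger SD. The place of Retnlg in P1 rested on replicate 3, and without it, an order added after the data were seen, its P1 mean was 2.98, the sixth.

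**Figure D1:**
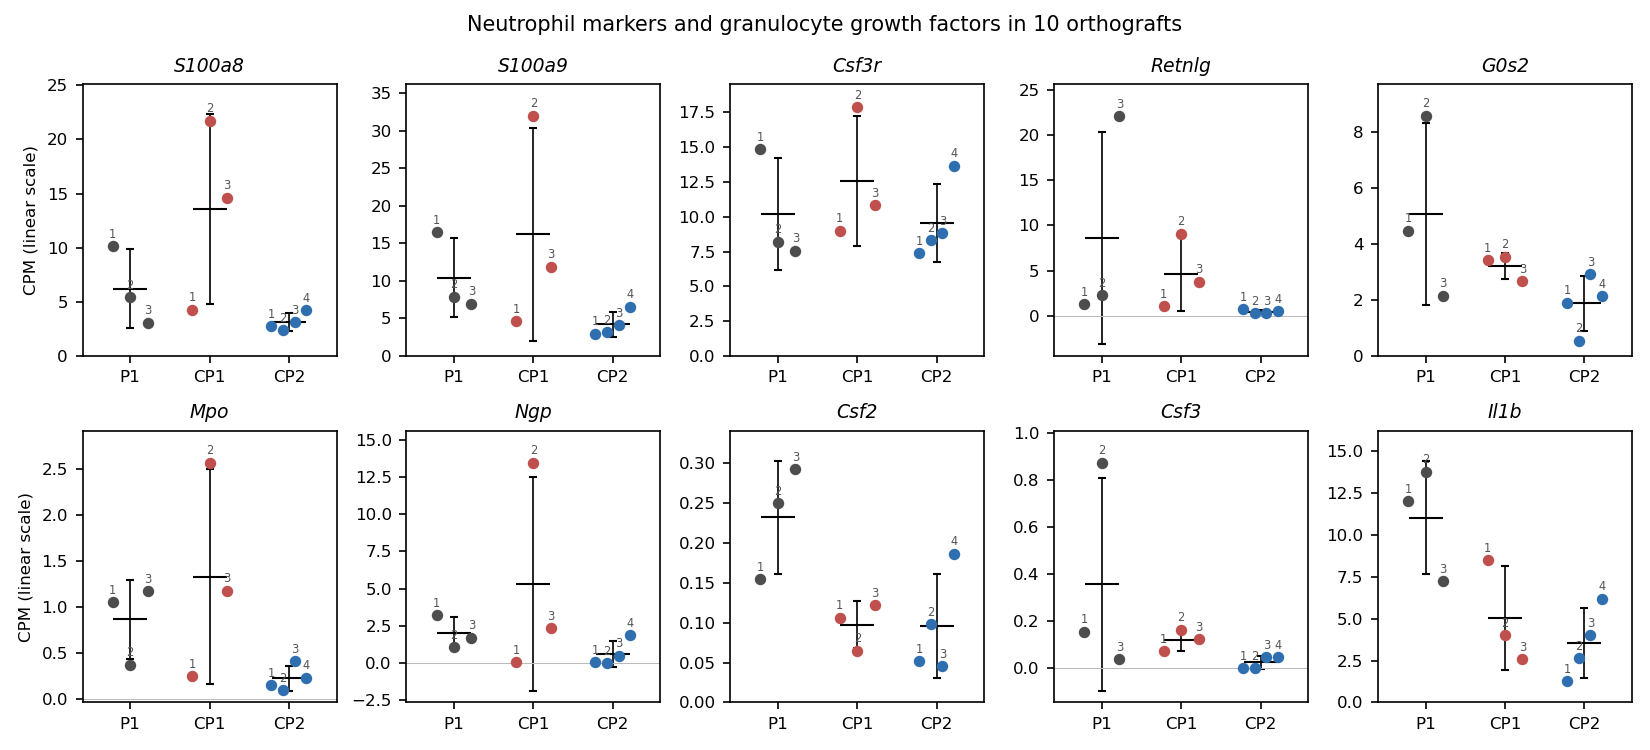
Level of each of the 10 genes in CPM (linear scale, each panel with its own axis) by line. Points are tumours with their replicate number, and bars are the mean and SD of 3 P1, 3 CP1 and 4 CP2 tumours. Retnlg reaches 22.2 CPM in P1 replicate 3, Ngp reaches 13.5 CPM in CP1 replicate 2, and CP2 is low in most panels.

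Csf3 (ENSMUSG00000038067, GRCm38 chr11:98701263-98703629, plus strand), the main growth factor of neutrophil precursors, was near the limit of detection. It had 5, 28 and 1 counts in P1 replicates 1 to 3, then 2, 5 and 3 in CP1 and 0, 0, 1 and 1 in CP2. Most of its reads were in P1 replicate 2, and the other 9 tumours had 5 or fewer. Scaled by library size, the summed P1 counts were 15.4 times those of CP2 (exact 95% binomial interval 3.95 to 132.2) and 3.10 times those of CP1 (1.5 to 7.03). The CP1 counts were 4.97 times those of CP2 (1.06 to 46.6). These intervals cover counting error only. Without P1 replicate 2, a comparison added after the data were seen, 6 P1 counts stood against 2 in CP2, a ratio of 4.17 (0.746 to 42.3). The same 6 stood against 10 in CP1, a ratio of 0.840 (0.251 to 2.55), so that the direction of P1 against CP1 turned. With no filter on low counts, edgeR gave Csf3 a log2 fold change of -3.70 ± 1.09 (SE) in CP2 versus P1 (adjusted p = 0.0187). The same edgeR fit did not call Csf3 in CP1 versus P1 (adjusted p = 0.255) or in CP2 versus CP1 (0.277).

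Csf2 (ENSMUSG00000018916, GRCm38 chr11:54247271-54249667, minus strand), which supports granulocytes and macrophages, was as rare. It had 5, 8 and 8 counts in P1, 3, 2 and 3 in CP1, and 1, 2, 1 and 4 in CP2. The CP1 tumours lay below all P1 tumours, and 1 CP2 tumour reached the P1 range in CPM. P1 over CP1 was 2.39 (exact 95% binomial interval 1.02 to 6.25) and P1 over CP2 2.38 (1.01 to 6.20), while CP1 over CP2 was 0.993 (0.325 to 3.04). No difference in Csf2 between the CP lines was detectable at this depth. Unfiltered, Csf2 was not called by edgeR in CP1 or CP2 versus P1 (adjusted p = 0.171 and 0.118).

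The receptor gene Csf3r (ENSMUSG00000028859, GRCm38 chr4:126024550-126044440, plus strand) had the smallest errors of the 8 tested genes. Its level was 14.8, 8.20 and 7.56 CPM in P1 replicates 1 to 3. CP1 had 9.01, 17.9 and 10.8 CPM, and CP2 had 7.40, 8.34, 8.81 and 13.7 CPM. The 3 lines overlapped throughout. In edgeR's test the log2 fold change was 0.30 ± 0.35 (SE) in CP1 versus P1 (adjusted p = 0.515), -0.09 ± 0.33 in CP2 versus P1 (0.821) and -0.40 ± 0.32 in CP2 versus CP1 (0.349). Differences of the size of these errors cannot be told from 0 here.

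S100a8 and S100a9 encode the 2 chains of calprotectin, a calcium- and zinc-binding protein that fills the neutrophil cytosol and is also made by stressed squamous epithelium. S100a8 (ENSMUSG00000056054, GRCm38 chr3:90668978-90670035, plus strand) was at 10.2, 5.43 and 3.07 CPM in P1, 4.28, 21.7 and 14.6 CPM in CP1, and 2.78, 2.36, 3.10 and 4.24 CPM in CP2. Each CP2 tumour was below each CP1 tumour, with 4.24 CPM in CP2 replicate 4 next to 4.28 CPM in CP1 replicate 1. S100a8 was 4.34-fold lower in CP2 than in CP1 (log2 fold change -2.12 ± 0.53, edgeR adjusted p = 0.00967). It remained called when any 1 of the 7 tumours was left out (adjusted p 0.00139 to 0.0453). With both CP1 replicates 2 and 3 removed, only CP1 replicate 1, the lowest CP1 tumour for S100a8, was left, and the log2 fold change was -0.46 (adjusted p = 0.605).

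S100a9 (ENSMUSG00000056071, GRCm38 chr3:90692632-90695721, minus strand) took the same course. P1 had 16.5, 7.89 and 6.94 CPM, CP1 had 4.66, 32.0 and 11.9 CPM, and CP2 had 2.98, 3.19, 4.06 and 6.56 CPM. The lowest CP1 tumour lay inside the CP2 range, and all P1 tumours lay above CP2. S100a9 was 3.85-fold lower in CP2 than in CP1 (log2 fold change -1.94 ± 0.58, edgeR adjusted p = 0.0224). Without CP1 replicate 2 the log2 fold change was -0.97 (adjusted p = 0.149). The call was also lost without CP2 replicate 1 (0.0583), 2 (0.0598) or 3 (0.0527). Against P1, the log2 fold change of CP2 was -1.0 ± 0.53 for S100a8 (0.133) and -1.31 ± 0.58 for S100a9 (0.0784, or 0.0336 with DESeq2).

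Reads of S100a9 per read of S100a8 varied from 0.812 to 2.26 over the 10 tumours, while the S100a8 level varied from 2.36 to 21.7 CPM. In CP1 versus P1 neither gene passed the test, with log2 fold changes of 1.12 ± 0.56 for S100a8 (edgeR adjusted p = 0.132) and 0.63 ± 0.61 for S100a9 (0.434). Leaving out CP1 replicate 1, the lowest of its line, gave 1.53 for S100a8 (adjusted p = 0.0198), and leaving out CP1 replicate 2 gave -0.34 for S100a9 (0.645). The CP1 level thus rested on which tumours were in it.

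Ngp (ENSMUSG00000032484, GRCm38 chr9:110419747-110423012, plus strand) encodes a cathelin-family protein of the specific granules, made in neutrophil precursors. It was at 3.2, 1.06 and 1.72 CPM in P1, at 0.0707, 13.5 and 2.35 in CP1 and at 0.0514, 0, 0.502 and 1.86 in CP2. Within CP1 alone it went from 2 counts in replicate 1 to 415 in replicate 2. No comparison was called. CP2 versus CP1 gave a log2 fold change of -3.11 ± 1.35 (edgeR adjusted p = 0.0895), which passed without CP1 replicate 1 (0.0269) or CP2 replicate 4 (0.0443). The estimate was -0.96 without CP1 replicate 2 (0.606).

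Myeloperoxidase, the azurophil granule enzyme encoded by Mpo (ENSMUSG00000009350, GRCm38 chr11:87793581-87804413, plus strand), followed a like course at lower levels. P1 had 1.05, 0.374 and 1.17 CPM, CP1 had 0.247, 2.57 and 1.17 CPM, and CP2 had 0.154, 0.0982, 0.411 and 0.233 CPM. The CP2 values rest on 3, 2, 9 and 5 reads. Mpo was 5.79-fold lower in CP2 than in CP1 (log2 fold change -2.53 ± 0.76, edgeR adjusted p = 0.0221), with CP1 replicate 1 inside the CP2 range. Without CP1 replicate 2 it was -1.61 (0.123), and the call was also lost without CP2 replicate 1 (0.0560), 2 (0.0596) or 4 (0.0510). CP2 versus P1 gave -1.90 ± 0.77 (0.0586). That comparison was called by DESeq2 (0.0352) and without P1 replicate 2 (0.0379).

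Retnlg (ENSMUSG00000022651, GRCm38 chr16:48872621-48874496, plus strand) encodes resistin-like gamma, a secreted protein abundant in mouse marrow and in mature mouse neutrophils. P1 had 1.26, 2.28 and 22.2 CPM, CP1 had 1.06, 9.09 and 3.77 CPM, and CP2 had 0.720, 0.245, 0.228 and 0.512 CPM. Every CP2 tumour lay below every other tumour. The log2 fold change of CP2 was -4.32 ± 1.10 against P1 (edgeR adjusted p = 0.00717) and -3.44 ± 1.09 against CP1 (0.0276). Without P1 replicate 3, which held 607 of the 721 P1 reads, the first was -2.06 (0.0522). Without CP1 replicate 2 the second was -2.49 (0.116), and that call was also lost without CP2 replicate 2 (0.0705), 3 (0.0709) or 4 (0.0585). CP1 versus P1 gave -0.88 ± 1.01 (0.513), and without P1 replicate 3 it turned to 1.38 (0.192).

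Retnlg and S100a8 parted most in a single tumour. There were 0.0735 to 0.420 Retnlg reads per S100a8 read in 9 tumours and 7.23 in P1 replicate 3, where S100a8 was the lowest of its line. Chil3, a chitinase-like gene of mouse monocytes, neutrophils and macrophages, had 60.1 CPM in P1 replicate 3 against 3.70 and 5.77 in the other P1 tumours, and 209 and 95.5 CPM in CP1 replicates 2 and 3 against 4.70 in CP1 replicate 1. Reads of Mpo per S100a8 read were also highest there, at 0.381 against 0.0417 to 0.132 in the other 9 tumours, as were reads of S100a9 per S100a8 read (2.26). The plot of S100a8 against 3 genes shows this tumour apart in the Retnlg panel.

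**Figure D2:**
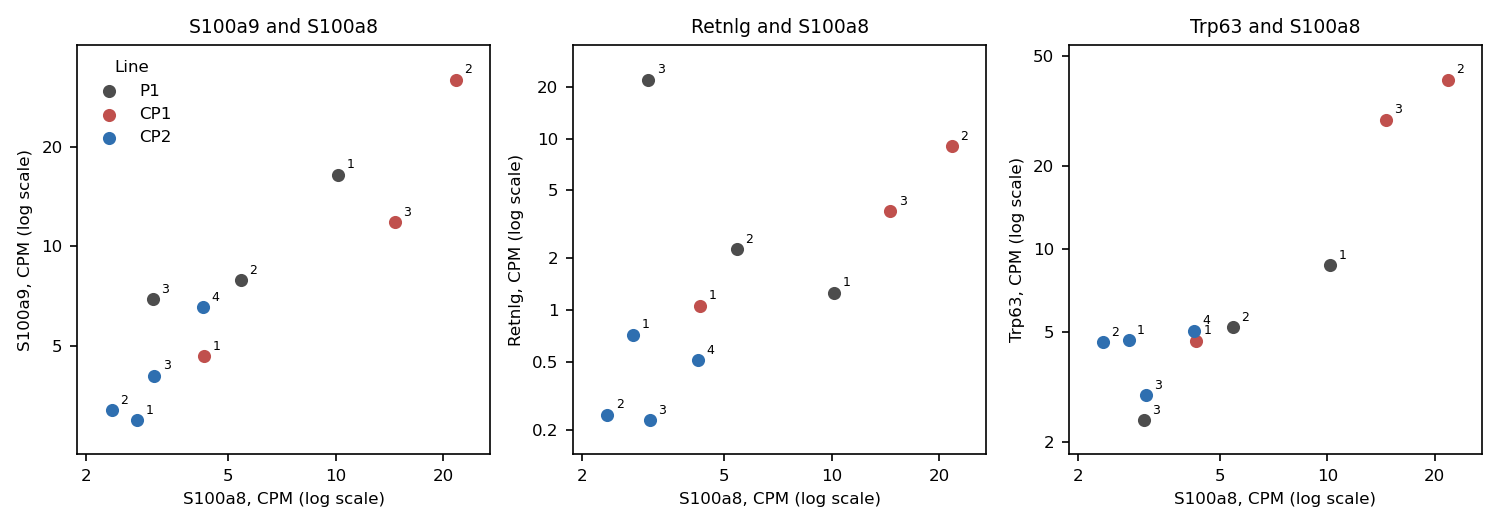
CPM of S100a9, Retnlg and Trp63 (vertical, log scale) against S100a8 (horizontal, log scale) in the 10 tumours, coloured by line and numbered by replicate. S100a9 and Trp63 are highest where S100a8 is highest, in CP1 replicate 2, while Retnlg peaks at 22.2 CPM in P1 replicate 3, where S100a8 is at 3.07 CPM.

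G0s2 (ENSMUSG00000009633, GRCm38 chr1:193272161-193273217, minus strand) encodes an inhibitor of adipose triglyceride lipase and is transcribed in neutrophils as well as in fat, liver and other cells. It was at 4.47, 8.58 and 2.15 CPM in P1, at 3.43, 3.54 and 2.67 in CP1 and at 1.90, 0.540, 2.92 and 2.14 in CP2. P1 replicate 3 lay inside the CP2 range. G0s2 was 2.69-fold lower in CP2 than in P1 (log2 fold change -1.43 ± 0.53, edgeR adjusted p = 0.0407). The call was lost without P1 replicate 1 (0.0570), P1 replicate 2 (log2 fold change -0.84, 0.211) or CP2 replicate 1, 2 or 4 (0.0643 to 0.0779), and in a fit of P1 and CP2 alone (0.0593). CP1 versus P1 gave -0.66 ± 0.56 (0.372) and CP2 versus CP1 -0.77 ± 0.53 (0.265).

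G0s2 lies inside the gene body of Lamb3, a laminin chain gene on the opposite strand, and shares none of its 871 exon bases with a Lamb3 exon. Lamb3 was at 277 to 300.1 CPM in P1, 7.24 to 28.7 in CP1 and 18.9 to 21.7 in CP2. It was lower in CP1 and in CP2 than in P1 (log2 fold changes -3.89 ± 0.40 and -3.81 ± 0.36). The use of strand in counting is not known here, and the part of unspliced Lamb3 reads in the G0s2 counts was not tested. Of 7 tested fat cell genes, another place of G0s2 transcription, 2 were called lower in CP2 versus P1, where 28.4% of all tested genes were. The median log2 fold change of the list was 0.20, and Adipoq (mean 3.5 CPM in CP2 and 1.95 in P1) and Fabp4 (21.9 and 19.2 CPM) were not called. The sums of the fat cell genes were 65.4 to 104.4 CPM in P1, 82.9 to 192.6 in CP1 and 35.3 to 104.9 in CP2. Their part in the G0s2 result was not tested.

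Il1b (ENSMUSG00000027398, GRCm38 chr2:129364570-129371139, minus strand), made by neutrophils, monocytes and macrophages, was at 12.0, 13.8 and 7.26 CPM in P1. CP1 had 8.52, 4.03 and 2.59 CPM, and CP2 had 1.29, 2.65, 4.02 and 6.19 CPM. All 4 CP2 tumours were below all 3 P1 tumours. Il1b was 3.11-fold lower in CP2 than in P1 (log2 fold change -1.64 ± 0.52, edgeR adjusted p = 0.0212). Leaving out P1 replicate 2 gave 0.0639 and leaving out CP2 replicate 2 gave 0.0571. CP1 versus P1 was -1.13 ± 0.56 (0.127) and passed without CP1 replicate 1 (log2 fold change -1.74, 0.0357). CP2 versus CP1 was -0.51 ± 0.52 (0.453).

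The order of tumours for Il1b was not that of the S100 genes. In CP1, replicate 1 had the most Il1b and the least S100a8, and there were 0.945 Il1b reads per Csf3r read there against 0.225 and 0.240 in CP1 replicates 2 and 3. Macrophage transcripts summed to 1468 to 1905 CPM in P1, 743 to 1610 in CP1 and 1204 to 1809 in CP2. Of 15 macrophage genes, 0 rose and 1, Cd14, fell in CP2 versus P1 (edgeR, with 2 below an unadjusted p of 0.05), and 1 rose and 2 fell in CP1 versus P1. Over all tested genes, 28.3% rose and 28.4% fell in CP2 versus P1, and 22.4% each in CP1 versus P1. The antisense gene Il1bos shares 25 of the 1907 exon bases of Il1b and had 2 to 21 counts per tumour.

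By edgeR's test, 3 of the 8 tested genes were called lower in CP2 than in P1 (Retnlg, Il1b and G0s2) and 0 higher, where 28.4% of all 17644 tested genes were lower, 28.3% higher and 56.7% called in either direction. The share of 3 in 8 is near that background. In CP2 versus CP1, 4 of the 8 were lower (S100a8, S100a9, Retnlg and Mpo) and 0 higher, against 21.9% lower, 21.3% higher and 43.3% called over all genes. CP1 versus P1 called 0 of the 8, against 22.4% higher, 22.4% lower and 44.8% in all, with 0 below an unadjusted p of 0.05 and 0 called by DESeq2. No gene had an unadjusted p below 0.05 in the higher direction in the 2 CP2 comparisons, and DESeq2 called 0 higher there.

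The median log2 fold change over the 8 tested genes was 0.47 in CP1 versus P1, -1.53 in CP2 versus P1 and -2.03 in CP2 versus CP1, with medians of -0.01, 0.00 and -0.01 over all tested genes. The comparisons with P1 share the 3 P1 tumours. The summed level of all 10 genes was 48.7 to 63.8 CPM in P1, 31.4 to 104.5 in CP1 and 17.3 to 35.7 in CP2, so that only CP2 replicate 4 reached above the lowest CP1 tumour and none reached P1.

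**Figure D3:**
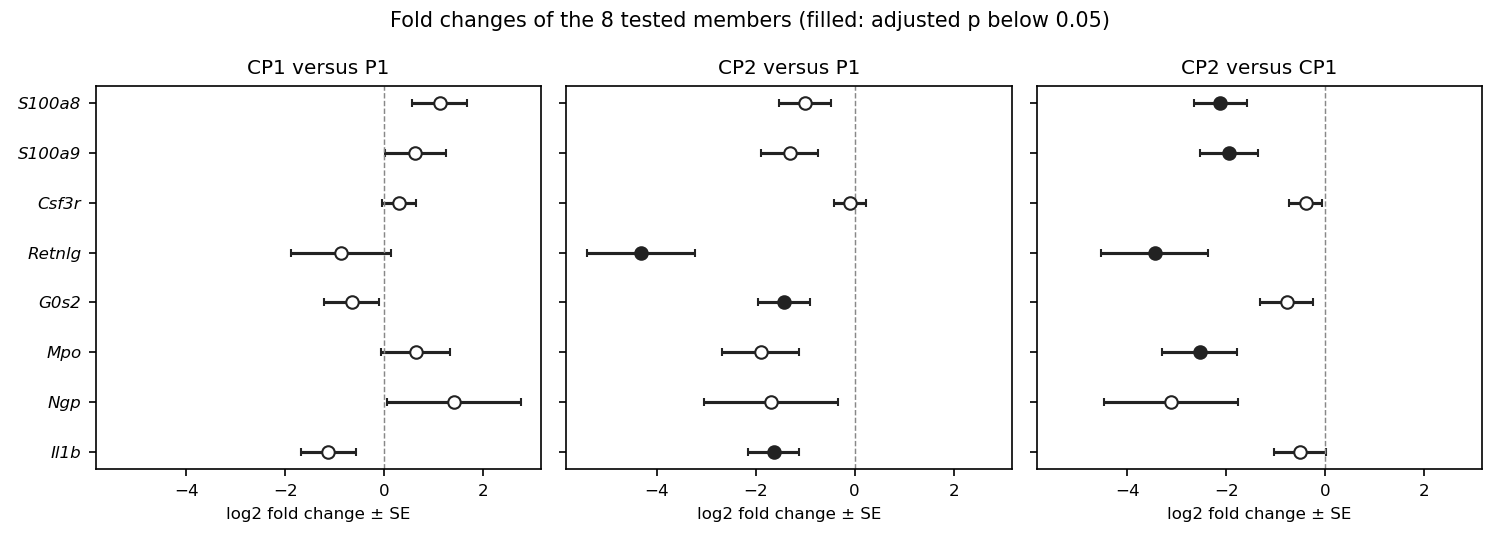
Log2 fold change with its SE (horizontal axis, edgeR) of the 8 tested genes in the 3 comparisons. Filled points have an adjusted p below 0.05: 0 in CP1 versus P1, 3 in CP2 versus P1 and 4 in CP2 versus CP1, all of the filled ones below 0.

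Beyond these 10 genes, a list of 32 other neutrophil genes was read, of which 27 passed the filter. Relative to P1, CP1 had 10 higher and 3 lower (median log2 fold change 1.01) and CP2 had 5 higher and 8 lower (0.09). CP2 relative to CP1 had 4 higher and 9 lower (-1.19). Of all tested genes, 22.4% were higher and 22.4% lower in CP1 versus P1. The shares were 28.3% and 28.4% in CP2 versus P1 and 21.3% and 21.9% in CP2 versus CP1. The list did not move one way, as the heat map of all tested neutrophil genes shows.

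Genes of mature neutrophils in this list included some that were highest in CP1. Cxcr2, the chemokine receptor that guides neutrophils out of marrow and into tissue, was at 2.28, 1.28 and 1.68 CPM in P1, 2.69, 10.4 and 4.94 in CP1 and 1.03, 1.33, 1.10 and 1.44 in CP2. It rose in CP1 versus P1 (log2 fold change 1.78 ± 0.45, edgeR adjusted p = 0.00843) and was lower in CP2 than in CP1 (-2.30 ± 0.42, 0.00181). Mmp8, the neutrophil collagenase, rose in CP1 (2.70 ± 0.77, 0.0160), where it was at 0.707, 7.05 and 3.36 CPM. Cxcr2 and Mmp8 thus had the same CP1 tumour on top as S100a8.

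Ly6g, the surface protein of the common mouse neutrophil antibody, had another order. It had 5, 5 and 8 counts in P1, 42, 20 and 22 in CP1 and 1, 0, 2 and 0 in CP2. It rose in CP1 versus P1 (log2 fold change 2.32 ± 0.53, edgeR adjusted p = 0.00520) and was lower in CP2 than in P1 (0.0285) and CP1 (0.000427). The summed P1 counts were 5.43 times those of CP2 (exact 95% binomial interval 1.59 to 28.8) and the CP1 counts 27.8 times (9.20 to 137.6). Its highest value, 1.48 CPM, was in CP1 replicate 1, the CP1 tumour with the least S100a8, S100a9, Ngp, Mpo and Retnlg.

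Granule genes divided between higher and lower. Mmp9, a gelatinase of neutrophil granules that macrophages and tumour cells also make, was at 11.9 to 24.3 CPM in P1, 52.7 to 112 in CP1 and 598 to 1318 in CP2. It rose in CP1 (log2 fold change 2.27 ± 0.37) and CP2 (5.72 ± 0.42) versus P1, with edgeR adjusted p of 0.000719 and 3.84e-06. Ctsg, cathepsin G of neutrophils and mast cells, rose in CP2 versus P1 (2.94 ± 0.52, 0.000890), at 7.67 to 13.7 CPM against 1.08 to 1.5. Mpo and Prtn3, which share the azurophil granule with Ctsg, did not follow it: Prtn3 was lower in CP2 than in P1 (-2.10 ± 0.40, 0.00133).

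Lcn2 and Ltf, proteins of the specific granules that epithelia also secrete, were at 114 to 419 CPM and 289 to 716 CPM in P1. Lcn2 fell in CP1 (log2 fold change -5.28 ± 0.93) and CP2 (-3.62 ± 0.76) versus P1, and Ltf fell likewise (-6.53 ± 1.62 and -3.98 ± 1.27), with edgeR adjusted p from 0.00115 to 0.0221. Both had their lowest line mean in CP1, where Ngp, a gene of the same granules, had its highest. The Ngp mean rested on CP1 replicate 2, with 415 of 475 reads, and Ngp was not called. Within CP1, Lcn2 and Ltf were also highest in replicate 2. Lcn2 was at 5.87, 12.0 and 4.98 CPM in CP1 replicates 1 to 3, and Ltf at 0.777, 13.6 and 1.42. Camp, the cathelicidin of specific granules, was at 0.212, 4.58 and 0.810 CPM in CP1 and 0 to 0.605 in CP2, lower in CP2 than in CP1 (-2.89 ± 1.02, 0.0435). Elane, neutrophil elastase, did not pass the filter, with 36 of its 43 CP1 reads in CP1 replicate 2. Camp, Elane, Ngp and Mpo thus shared CP1 replicate 2 as their highest tumour.

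**Figure D4:**
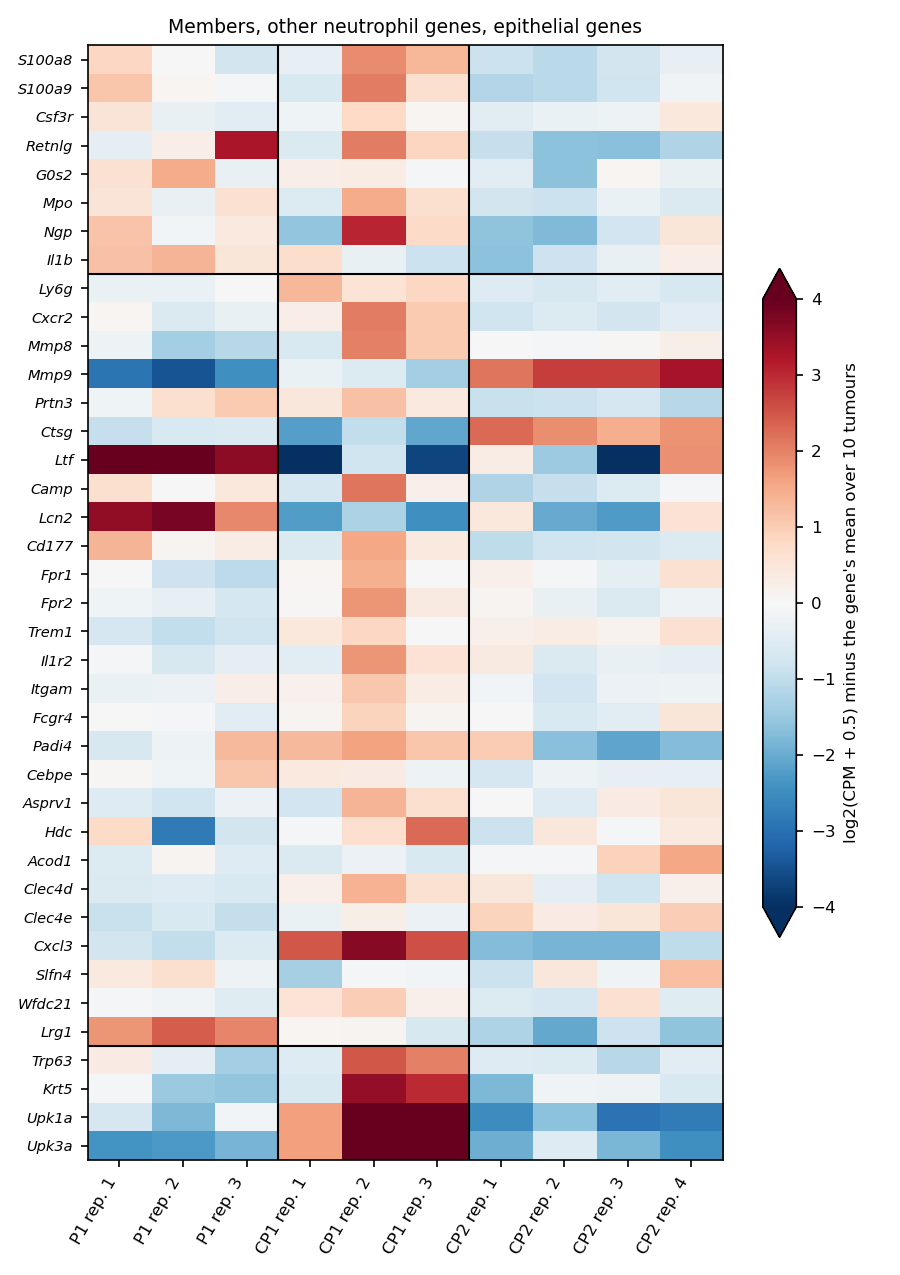
Log2(CPM + 0.5) minus each gene's mean over the 10 tumours (colour, clipped at -4 and 4) for the 8 tested genes, 27 other neutrophil genes and 4 epithelial genes (rows, separated by lines) in the 10 tumours (columns, grouped by line). CP1 replicate 2 is red for S100a8, S100a9, Ngp, Cxcr2, Mmp8 and Camp and for Trp63, Krt5, Upk1a and Upk3a, and Retnlg is darkest in P1 replicate 3.

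Epithelial transcripts moved with these genes in CP1. Trp63, a transcription factor of basal and squamous epithelium, was at 4.66, 41.0 and 29.4 CPM in CP1 replicates 1 to 3, and the basal keratin Krt5 at 20.0, 353 and 243 CPM. The 6 genes of a urothelial list, with the uroplakins of the bladder lining, summed to 58.4, 1351 and 546.6 CPM in the same tumours, to 23.5 to 48.4 in P1 and to 2.14 to 10.8 in CP2. All 6 rose in CP1 versus P1 and all 6 were lower in CP2 than in CP1. Of 13 tested squamous genes, 4 rose and 4 fell in CP1 versus P1, and 3 were higher and 5 lower in CP2 than in CP1. Of 10 prostate epithelial genes, 1 rose and 5 fell in CP1 versus P1, and 1 rose and 7 fell in CP2 versus P1. Over all tested genes, 22.4% rose and 22.4% fell in CP1 versus P1. The shares were 28.3% and 28.4% in CP2 versus P1 and 21.3% and 21.9% in CP2 versus CP1. CP1 replicates 2 and 3, high in these genes, were also the CP1 tumours highest in S100a8, S100a9, Ngp, Mpo, Retnlg and Cxcr2. The part of the epithelial or bladder transcripts in the result was not tested.

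Other blood cells were read in the same way. The shares over all tested genes were 22.4% higher and 22.4% lower in CP1 versus P1. They were 28.3% and 28.4% in CP2 versus P1 and 21.3% and 21.9% in CP2 versus CP1. Monocyte genes, which share part of the granulocyte programme, had 2 of 9 lower in CP1 versus P1 and no other below an unadjusted p of 0.05, 1 higher and 5 lower in CP2 versus P1 and 1 higher and 4 lower in CP2 versus CP1. Ly6c2 was among the lower in CP2 (log2 fold change -1.28 ± 0.34 against P1, edgeR adjusted p = 0.00881). Plac8 and Ace were also lower, from P1 means of 284 and 232 CPM, and Vcan was higher (mean 130 CPM against 42.9). Ccr2 (9.96 to 16.1 CPM in CP2 and 12.9 to 21.3 in P1) and Cx3cr1 (30.8 to 60.5 and 31.7 to 57.2) overlapped. Which cells made these transcripts was not tested. Genes of mast cells, basophils and eosinophils had 1 higher and 6 lower of 8 in CP2 versus P1. There the basophil protease gene Mcpt8 rose (3.06 ± 0.52, 0.000674) and the mast cell gene Mcpt4 fell (-6.31 ± 0.92, 0.000265). Markers of a cell type did not move together. Cma1, another mast cell gene, was at 34.4 to 44.7 CPM in CP2 against 9.36 to 24.4 in P1 and was not called. Fcer1a, of mast cells and basophils, was at 0 to 0.183 CPM in CP2 against 0.655 to 1.13 in P1. The eosinophil genes Epx and Prg2 did not pass the filter and had 0.212 CPM or less in every tumour. Of 7 red cell and platelet genes, the platelet genes Pf4 and Itga2b were called higher in CP1 versus P1, where 22.4% of all tested genes were, and the list median was -1.38. The red cell genes Hba-a1 (mean 6.76 CPM in P1 and 2.57 in CP1), Hbb-bs (18.2 and 6.71) and Alas2 (2.52 and 1.15) were not called there. In CP2 versus P1, 1 of the 7 was higher and 1 lower, and the list summed to 14.5 to 57.2 CPM over all tumours. Lymphocyte and NK cell genes had 7 of 11 lower in CP1 versus P1, 1 higher and 4 lower in CP2 versus P1 and 6 higher in CP2 versus CP1.

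Of the other colony-stimulating factors and receptors, 13 of 14 listed were in the tables and 11 passed. In CP1 versus P1, 3 rose and 3 fell, in CP2 versus P1, 4 rose and 4 fell, and in CP2 versus CP1, 4 were higher and 3 lower. Over all tested genes, the shares higher and lower were 22.4% and 22.4%, 28.3% and 28.4%, and 21.3% and 21.9%, in this order. Csf1, the macrophage growth factor, was at 33.3 to 43.7 CPM in P1, 61.1 to 74.1 in CP1 and 84.1 to 96.4 in CP2, with no overlap. It rose in CP1 (log2 fold change 0.87 ± 0.12, edgeR adjusted p = 0.000236) and CP2 (1.24 ± 0.11, 1.40e-05), while its receptor Csf1r did not pass in any comparison (-0.13 ± 0.34, 0.18 ± 0.32 and 0.31 ± 0.32). Csf1, unlike Csf2 and Csf3, was thus abundant and higher in both CP lines.

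The subunits that receive Csf2 were lower in CP2. Csf2ra, the specific chain, was at 18.1 to 22 CPM in P1 and 9.72 to 13.2 in CP2 (log2 fold change -0.75 ± 0.21, edgeR adjusted p = 0.0108). Csf2rb, the chain shared with the interleukin-3 and interleukin-5 receptors, fell by 0.86 ± 0.22 on the log2 scale (0.00677), and Csf2rb2, its mouse relative for interleukin-3, fell by 1.35 ± 0.26 (0.00154). In CP1 versus P1 none of these chains was called (adjusted p from 0.0554 to 0.421). Kitl, stem cell factor, was at 350 to 490 CPM in CP1 against 81.8 to 117 in P1 (2.18 ± 0.24, 6.18e-05), and its receptor gene Kit was lower there (-1.64 ± 0.24, 0.000407). Il3 had 0 counts in all 10 tumours and Il5 did not pass the filter.

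**Figure D5:**
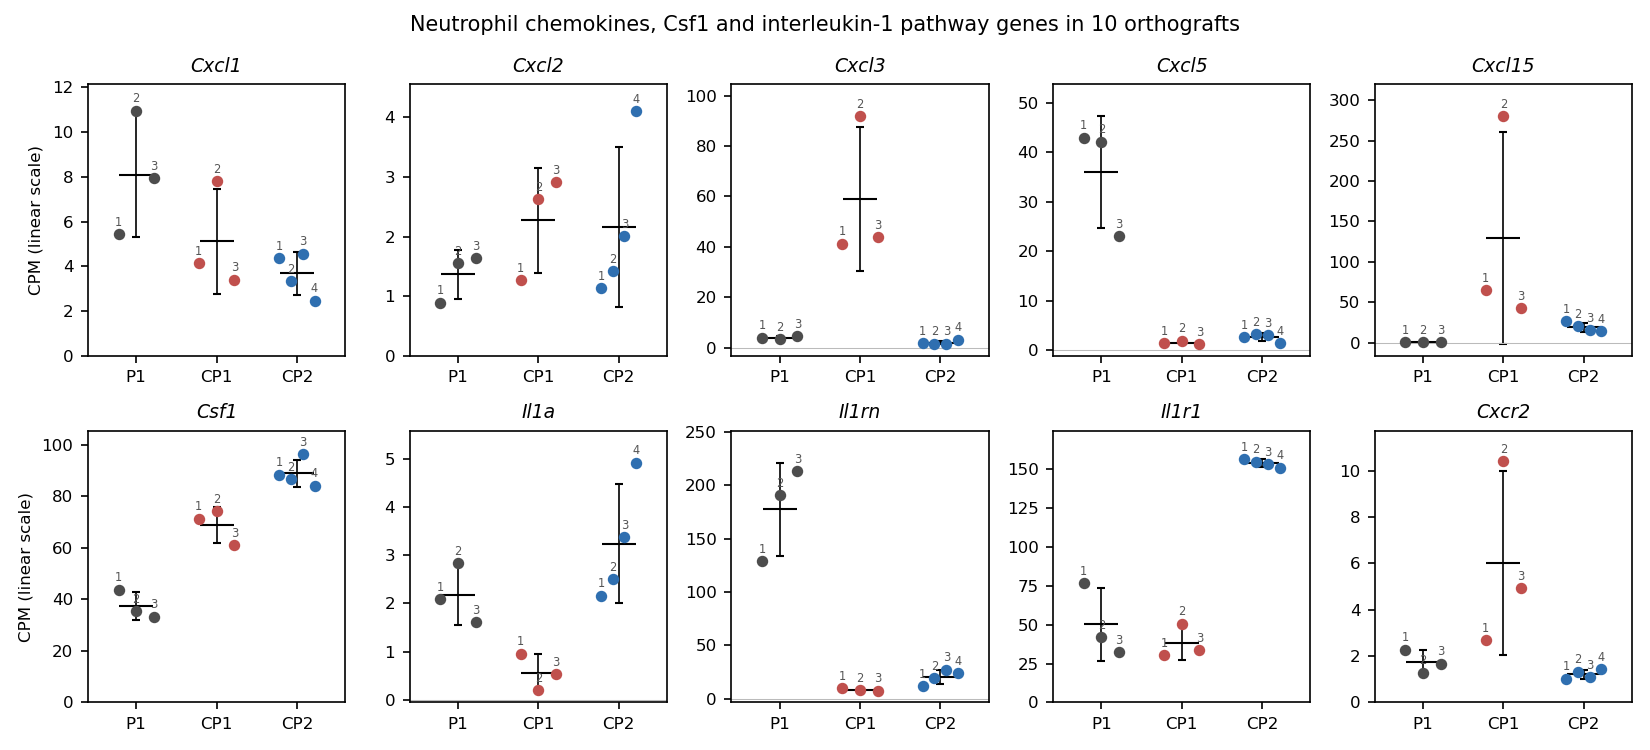
CPM (linear scale, each panel with its own axis) of 5 neutrophil-attracting chemokines, Csf1, 3 interleukin-1 pathway genes and Cxcr2 by line. Points are tumours with their replicate number, and bars are the mean and SD. Cxcl5 and Il1rn are high in P1, Cxcl3 and Cxcl15 in CP1, and Csf1 and Il1r1 in CP2.

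Chemokines that bind Cxcr2 differed by line in which member was high. Of 13 attractant and receptor genes, 3 rose and 1 fell in CP1 versus P1, 3 rose and 5 fell in CP2 versus P1, and 2 were higher and 4 lower in CP2 versus CP1. Over all tested genes, the shares higher and lower were 22.4% and 22.4%, 28.3% and 28.4%, and 21.3% and 21.9%, in this order. Cxcl5 was at 42.9, 42.2 and 23.0 CPM in P1 and 1.17 to 3.24 CPM in all 7 CP tumours (log2 fold changes -4.55 ± 0.37 in CP1 and -3.79 ± 0.32 in CP2). Cxcl3 was at 3.27 to 4.56 CPM in P1, 41.3, 92.0 and 43.8 in CP1 and 1.52 to 3.17 in CP2. It rose in CP1 (3.91 ± 0.38, edgeR adjusted p = 3.04e-05) and fell in CP2 (-0.97 ± 0.35, 0.0370). Cxcl5 was thus highest in P1 and Cxcl3 in CP1, and CP2 was low in both.

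Cxcl15, a neutrophil chemokine of mouse epithelia, was at 0.125 to 0.49 CPM in P1, 64.8, 281 and 42.2 in CP1 and 14.4 to 26.7 in CP2. It rose in CP1 (log2 fold change 8.82 ± 0.93, edgeR adjusted p = 4.75e-05) and CP2 (6.06 ± 0.87, 0.000233). Cxcl1 fell in CP2 versus P1 (-1.14 ± 0.35, 0.0185), at 2.47 to 4.56 CPM against 5.42 to 10.9, and Cxcl2 was not called in any comparison (0.73 ± 0.50, 0.67 ± 0.48 and -0.07 ± 0.46). Cxcl12, which holds neutrophils in marrow through Cxcr4, fell in CP2 versus P1 (-1.92 ± 0.51, 0.00942) and Cxcr4 rose (1.54 ± 0.22, 0.000236).

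Around Il1b, 20 of 21 interleukin-1 pathway and partner genes passed, Il1b among them. In CP1 versus P1, 5 rose and 8 fell, in CP2 versus P1, 5 rose and 9 fell, and in CP2 versus CP1, 6 were higher and 4 lower. Over all tested genes, the shares higher and lower were 22.4% and 22.4%, 28.3% and 28.4%, and 21.3% and 21.9%, in this order. Il1rn, the receptor antagonist, was at 129, 190 and 213 CPM in P1 against 7.53 to 10.0 in CP1 and 11.8 to 27.3 in CP2. It fell in CP1 (log2 fold change -4.36 ± 0.32, edgeR adjusted p = 5.86e-06) and CP2 (-3.10 ± 0.27, 1.05e-05). No CP tumour came near the P1 range of this gene.

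Il1a, the other agonist, was at 1.61 to 2.84 CPM in P1, 0.195 to 0.954 in CP1 and 2.16 to 4.93 in CP2. It fell in CP1 (log2 fold change -1.96 ± 0.52, edgeR adjusted p = 0.0109) and was not called in CP2 (0.57 ± 0.45, 0.298). The signalling receptor gene Il1r1 was at 151 to 156 CPM in CP2 against 32.1 to 76.7 in P1 (1.61 ± 0.28, 0.000814). Casp1, the protease that cuts the Il1b precursor, was at 22.4 to 53.8 CPM in CP1 against 3.76 to 5.39 in P1 (3.12 ± 0.30, 2.89e-05), and was not called in CP2 (0.68 ± 0.27, 0.0560). Il6, a cytokine induced by interleukin-1, rose in CP1 (1.27 ± 0.35, 0.0149) and fell in CP2 (-1.23 ± 0.37, 0.0159), and Tnf fell in both (-3.44 ± 0.40 and -2.79 ± 0.35). Mean levels of Il1b and Il1rn were thus highest in P1. Those of Il1a, not called against P1, and Il1r1 were highest in CP2.

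Genes most alike in their course within lines were sought by Pearson's r of log2(CPM + 0.5) over the 10 tumours, with the mean of each line taken away, among the 14888 tested genes that averaged 1 CPM or more (14889 for Csf3). The 10 points share depth, composition and the 3 lines, and the highest of so many values are high by selection. For S100a8 the first were 5033428I22Rik (r = 0.98) and Tril (0.97), and for Csf3r Krt80 (0.98) and Tspyl3 (0.97). By the same measure S100a9 had an r of 0.93 with S100a8 and of 0.92 with Csf3r. Ly6g, at low counts, went the other way, with an r of -0.87 with S100a8, -0.85 with S100a9 and -0.68 with Csf3r. The epithelial gene Trp63 had an r of 0.94 with S100a8, so a high r does not mark a shared cell type. For Csf3 the closest 5 were Gm4673, Gm1848, Suco, Pfkfb3 and Nefh (r from 0.97 to 0.99), all highest in P1 replicate 2. There Pfkfb3, a glycolysis regulator, was at 751 CPM against 20.0 to 62.4 in the other 9 tumours, and Nefh, a neurofilament chain, at 345.8 against 10.4 or less. For Il1b the first were Arl5c (0.96) and Cd180 (0.94), the latter a receptor-like protein of B cells and macrophages.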

How the data were processed

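Each tumour has 1 deposited table of raw read counts per Ensembl gene ID, unnormalised, as the whole numbers in it and the labels show. The submitters' processing notes name TopHat2 2.1.0 and Bowtie2 2.2.6.0, HTSeq 0.6.0, FastQC 0.11.4, DESeq2 1.14.1 and R 3.2.3, and the build GRCm38.p3, with no role or order. Parameters, annotation and use of strand are not given in the sources used here. The authors' counting could therefore mix reads of overlapping genes. Of 47069 gene IDs, 46574 matched GENCODE M21 (GRCm38), which gave symbols, coordinates and exon lengths.

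Counts were tested with edgeR 4.0.16 (limma 3.58.1, R 4.3.3): filterByExpr (minimum count 10, minimum total 15), TMM factors, and a quasi-likelihood fit with 1 mean per line over all 10 tumours. Calls needed an adjusted p (Benjamini-Hochberg, over 17644 genes) below 0.05, and adjusted p-values are from edgeR where no tool is named. The SE of a log2 fold change is its size over the root of F. Ratios of rare genes use summed counts with exact 95% binomial intervals. The fit was tested on simulated counts. DESeq2 1.42.0, RLE factors, no filter, fits of 2 lines and left-out tumours were alternatives.

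Total counts ran from 18800912 to 37180721 per tumour, which limits precision most in CP2. Replicates were numbered in accession order. Counts of any 2 tumours of a line differed by more than sampling noise, with a mean chi-square per gene of 13.6 to 398.6, so none was treated as 1 library deposited repeatedly. This does not show that they come from separate animals.

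The 10 genes, the 14 companion lists and the tests were chosen with earlier results of these data known, so their counts are descriptions of the lists. The text draws its named genes from the 2 largest called changes in each direction per list and comparison, among genes averaging 1 CPM or more, and from a fixed set of names such as Csf1 and Cxcr2. Prtn3, Epx, Prg2, Il3, Il5, Ctnnb1 and the overlapping genes Lamb3 and Il1bos fall outside that rule and were chosen after values were seen. Adipoq, Hba-a1, Hbb-bs, Alas2, Fcer1a, Ccr2 and Cx3cr1 also fall outside it. Motif windows and printed sequence come from RefSeq (GRCm38.p6). Some items, namely part of the genotypes, are not reported here.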

Additional observations from a re-analysis of the deposited data

How the results depend on the processing

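Over 286 alternative values for the 8 tested genes, 234 stayed on the same side of the threshold with the same direction, 27 lost a call, 8 gained one and 17 changed sign, all 17 for genes not called in that comparison. With 1 tumour left out at a time, the log2 fold change in CP1 versus P1 ranged from -0.34 to 1.11 for S100a9, -0.039 to 0.66 for Csf3r, -1.83 to 1.38 for Retnlg, -0.29 to 1.11 for Mpo and -0.73 to 1.97 for Ngp. It ranged from -0.32 to 0.26 for Csf3r in CP2 versus P1 and from -0.92 to 0.096 for Il1b in CP2 versus CP1. With P1 replicates 1 and 2 removed, G0s2 in CP1 versus P1 was 0.55 and Csf3r in CP2 versus P1 0.31. With CP1 replicates 2 and 3 removed, CP1 versus P1 was -0.54 for S100a8, -1.16 for S100a9, -0.18 for Csf3r, -1.78 for Mpo and -4.72 for Ngp, and CP2 versus CP1 was 0.083 for Csf3r and 3.03 for Ngp.

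The count called lower in CP2 versus P1 was 3, 5 with DESeq2 and 1 with P1 replicates 1 and 2 removed. In the latter fit Il1b was -1.06 (adjusted p = 0.284) and G0s2 -0.22 (0.806), and the gene still called, Retnlg, rests on P1 replicate 3 alone, which held 607 of the 721 P1 reads. The count lower in CP2 versus CP1 was 4, and 0 with CP1 replicates 2 and 3 removed. Both fits leave a lone tumour that is assumed to vary like the other lines. A fit of CP2 and P1 alone also called 3, losing G0s2 (0.0593) and gaining S100a9 (0.0163). Leaving out 1 tumour at a time gave 0 to 1 higher and 0 to 1 lower in CP1 versus P1, 1 to 3 lower in CP2 versus P1 and 1 to 5 lower in CP2 versus CP1, with 0 higher in both CP2 comparisons. The causes were not tested. Mpo did not pass the filter in the 2-line fits with CP2. Without P1 replicate 2, Csf3 in P1 was 0.840 times that in CP1. No paired analysis was possible because the replicate numbers only follow accession order and the labels pair no tumours. Depth limits Csf2, Csf3 and Ly6g most, at 0 to 4 counts per CP2 tumour.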
